A study of Homo sapiens with 12 samples.

Results

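The integrated stress response regulators described here are 10 genes, ATF4, ATF5, DDIT3, CEBPB, XBP1, TRIB3, PPP1R15A, CHAC1, DDIT4 and SESN2, taken by symbol from a table of 26334 gene symbols. All 10 were found, and all 10 passed the filter on low values (an average of 10 counts or more per library), which left 12032 genes to test. The samples were A673 cells, an established Ewing sarcoma line that the labels call shA673-1c, grown under blasticidin and zeocin in every group. They received 5 µM actinomycin D, which blocks transcription, for 0, 1, 2 or 4 h. Each time had 3 biological replicates in wells of 6-well plates, with no passage or day given, which made 12 poly(A) RNA libraries. The 0 h libraries are the only control, there was no vehicle arm at later times, and all libraries come from 1 cell line. The labels name neither the target of a hairpin nor an agent that would switch one on.

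In the integrated stress response, kinases that sense unfolded protein in the endoplasmic reticulum (ER), lack of amino acids, haem deficiency or double-stranded RNA phosphorylate the initiation factor eIF2. General translation then slows, while a few mRNAs with short reading frames ahead of their main one, that of the transcription factor ATF4 among them, are translated more. ATF4 with its bZIP partners induces genes for amino acid supply, redox balance and translation recovery, and under lasting stress it can turn on genes of cell death. Stress in the ER also acts through a separate branch, that of XBP1. The data hold mRNA levels only and say nothing of translation or protein.

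The 5′ untranslated regions (UTRs) of these mRNAs are shown first, because the upstream start codons there are the feature that textbooks link with this pathway. Canonical transcripts of GENCODE version 44 on GRCh38 held an upstream ATG in 6 of the 10 members, against 41.5% of 10816 tested protein-coding genes with both UTRs annotated. ATF4 and DDIT3 had 3 each, ATF5, TRIB3 and PPP1R15A had 2 each and SESN2 had 1. For 4 of the members that results below turn on, sequence around such an ATG is given 5′ to 3′ as 10 bases, the ATG in capitals and 10 bases, with the length of the reading frame it opens, stop codon left out.
ATF4, chr22:39520638-39520660, + strand, 3 codons: cacggccaccATGgcgtattagg
ATF4, chr22:39520737-39521361, + strand, across an intron, 59 codons: ggcttaagccATGgcgcttctca
ATF5, chr19:49929264-49929286, + strand, 3 codons: agccccggccATGgctctgtagc
ATF5, chr19:49929386-49930739, + strand, across an intron, 59 codons: tgctgcagccATGgagtcttcca
DDIT3, chr12:57520468-57520490, - strand, 34 codons: tgagcgtatcATGttaaagatga
DDIT3, chr12:57517426-57517715, - strand, across an intron, 73 codons: ctgaaagcagATGtgcttttcca
PPP1R15A, chr19:48872544-48872566, + strand, 26 codons: tgagggtgagATGaacgcgctgg
The 59-codon frames of ATF4 and ATF5 and the 73-codon frame of DDIT3 run into the main coding sequence. The 3-codon frames of ATF4 and ATF5, the 34-codon frame of DDIT3 and the frame of PPP1R15A end before it.

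In the 3′ UTR, where elements that speed mRNA loss often lie, the pentamer ATTTA (read on the mRNA strand, overlaps counted) occurred in 5 of the 10 members, against 75.1% of the same 10816 genes. XBP1 had 4, DDIT3 and PPP1R15A had 2, and CHAC1 and CEBPB had 1. The pentamer with TT directly before and directly after it, which is part of the first count, occurred in DDIT3 and CHAC1, against 10.1% of genes. For the 5 members, 30 bases are shown with each pentamer in capitals.
DDIT3, chr12:57516620-57516649, - strand: atagagattgtacATTTATTTAttactgtc
CHAC1, chr15:40955958-40955987, + strand: tacttgaaactttATTTAttgcaccatgtt
PPP1R15A, chr19:48875981-48876010, + strand: tggtttgcctataATTTAttaactATTTAt
XBP1, chr22:28794584-28794613, - strand: aggtgctttctccATTTATTTAaaactacc
CEBPB, chr20:50192284-50192313, + strand: cgcccgtggtgttATTTAaagaagaaacgt
In DDIT3 and XBP1 the pentamers of the window share a base, and PPP1R15A has both of its pentamers inside an 85-base 3′ UTR, against a median of 1420 bases over the 10816 genes. ATF4, with an 81-base 3′ UTR, ATF5, DDIT4, TRIB3 and SESN2 have no pentamer in the canonical transcript. A match is a description of letters, and whether any of these sites acts in A673 cells was not measured.

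Levels are given as CPM, that is as counts scaled to a common library size, here by edgeR's TMM method, which assumes that most genes do not move. The tables hold no added RNA of known amount, so a fall or rise is relative to the other mRNAs of the same library. In bulk RNA, fewer cells and less RNA per cell cannot be told apart. Library totals ran from 9147018 to 11194705 counts, and the common biological coefficient of variation was 0.0905. Scaling each library to GAPDH plus ACTB, whose own TMM slopes were 0.15 and 0.12 log2 per hour, lowered the median slope of all genes by 0.14 log2 per hour and their median 4 h difference by 0.55 log2. Of 7 Ewing sarcoma markers, 6 were present at 0 h (LIPI at 114 to 144 CPM, NR0B1 at 35.1 to 44.7), while CD99 was at 0 counts in all 12 libraries, as were SLC25A6 and ASMTL, other genes of the pseudoautosomal region. The leukocyte and endothelial markers PTPRC, PECAM1 and CDH5 had at most 6 counts in any library. Of the 3 epithelial markers EPCAM had at most 6 counts, while KRT18 stood at 248 to 378 CPM and KRT8 at 11.4 to 13.1 CPM at 0 h. The fibroblast markers COL1A1 and COL3A1 stood at 2792 to 3096 and 801 to 1007 CPM, and the part of other cell types in the results was not tested.

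The slope over time answers which of the regulator mRNAs fell, relative to other mRNAs, once transcription stopped. By a straight line in log2 level per hour over all 12 libraries (edgeR's quasi-likelihood test, Benjamini-Hochberg adjusted p below 0.05 over all tested genes), 8 of the 10 members fell, where 32.1% of all tested genes fell. ATF5 was the 1 member called higher, where 30.7% of genes were, and ATF4 was not called. The 8 that fell were CHAC1, DDIT4, CEBPB, DDIT3, XBP1, SESN2, PPP1R15A and TRIB3, in order of slope. The median slope of the 10 members was -0.55 log2 per hour, and that of all tested genes was 0.0093. The contrast of 4 h against 0 h called the same 8 lower and ATF5 higher, against 31.6% and 28.7% of genes. Blocking on replicate number gave the same 9 calls, against 34.8% and 36.2% of genes for the slope and 36% and 36.8% for the contrast. In these 8 members no 4 h library reached the lowest 0 h library, a separation that 33.0% of tested genes also had. Counted from the steepest fall of 12032 genes, CHAC1 ranked 7, DDIT4 18, CEBPB 165, DDIT3 212, XBP1 310, SESN2 611, PPP1R15A 695, TRIB3 1132, ATF4 5566 and ATF5 8478. The first 2 ranks are limited by counting error, since at 2 and 4 h CHAC1 held 1 to 4 counts per library and DDIT4 held 3 to 13. CHAC1 passed the filter through its 0 and 1 h counts, and a mean of at least 50 counts leaves both genes out.

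**Figure D1:**
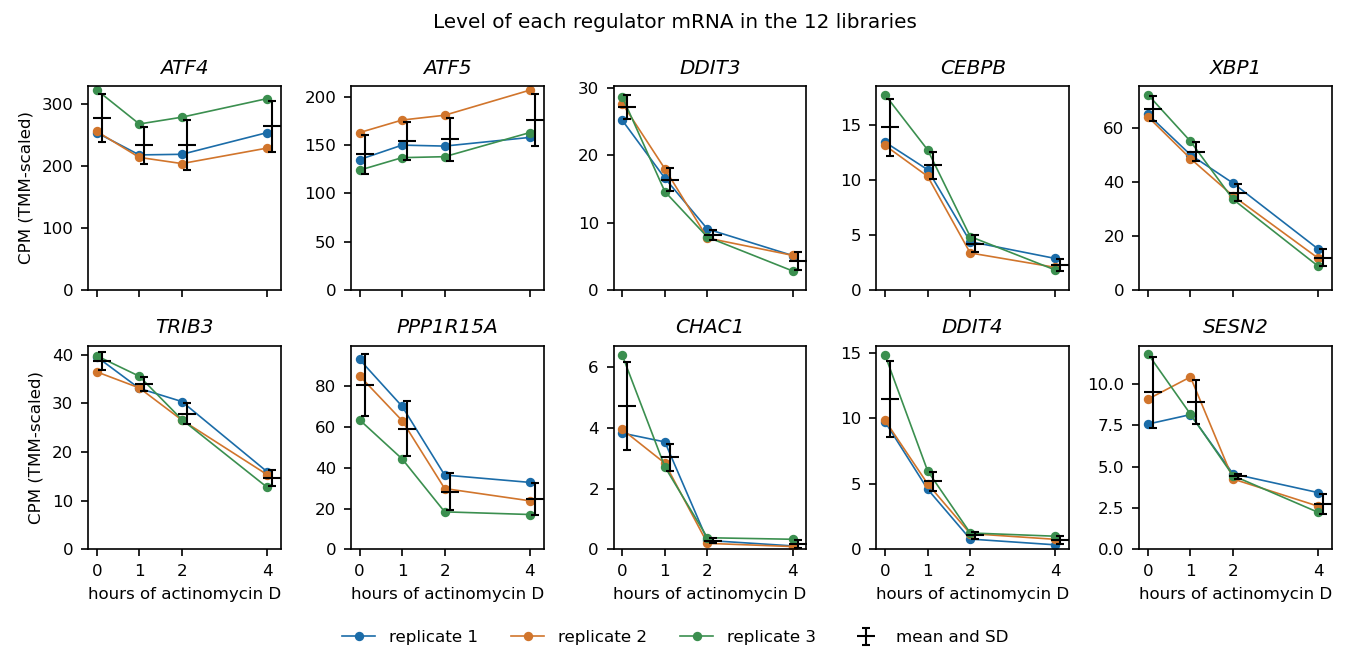
TMM-scaled CPM of the 10 regulator mRNAs (vertical axes, each from 0) against hours of actinomycin D (0, 1, 2 and 4); colored points joined by lines are the 3 replicates, and black bars are the mean and SD, set slightly to the right. ATF4 dips and returns to 95.2% of its 0 h mean, ATF5 ends at 125%, and the other panels decline to between 3.89% (CHAC1) and 38.0% (TRIB3) of the 0 h mean at 4 h.

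ATF4 and ATF5, the transcription factors at the head of the pathway, were the members not called as falling under TMM scaling, which sets levels relative to other mRNAs. ATF4, the factor made when eIF2 is phosphorylated, lies on chromosome 22 from 39519695 to 39522683 (GRCh38) in 3 exons of its canonical transcript. Its CPM in replicates 1, 2 and 3 were 254, 256 and 323 at 0 h, 218, 214 and 268 at 1 h, 219, 204 and 279 at 2 h, and 254, 229 and 309 at 4 h. Replicate 3 was the highest at every time, and the ranges of the 4 times overlapped. From 0 to 1 h the level went down in each replicate, with a log2 difference of -0.25 (standard error 0.139, edgeR adjusted p = 0.471). A fit that blocks on replicate number, and so compares libraries of the same number, called that difference (-0.25, standard error 0.0355, adjusted p = 5.54e-06). From 2 to 4 h the log2 difference was 0.17 (standard error 0.14, edgeR adjusted p = 0.375), and with the block it was called as a rise (adjusted p = 0.000147). The slope over all times was -0.01 log2 per hour (standard error 0.035, edgeR adjusted p = 0.902, or 0.796 with the block). Under the GAPDH plus ACTB scaling the slope was -0.14 and past the threshold (edgeR adjusted p = 0.00618), which is close to the shift of -0.14 that this scaling gave the median gene. The 2 to 4 h difference was then -0.13 with the block, below 0 (edgeR adjusted p = 0.00278). The pseudogenes ATF4P1 to ATF4P4 have no rows of their own, and how reads that also match them were counted is not given in the sources used here.

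ATF5, a related factor best known for its part in the mitochondrial stress response, lies on chromosome 19 from 49928702 to 49933935. Its CPM were 135, 163 and 124 at 0 h, 150, 176 and 137 at 1 h, 149, 181 and 138 at 2 h, and 158, 207 and 163 at 4 h. Every replicate was higher at 4 h than at 0 h, while the groups overlapped, since replicate 2 was the highest throughout. The slope was 0.08 log2 per hour (standard error 0.0297, edgeR adjusted p = 0.0341), and single replicates gave 0.05, 0.08 and 0.09. With the block the adjusted p was 9.81e-06 (edgeR). The rise depended on the scaling: with library totals the slope was 0.037 (edgeR adjusted p = 0.278), and with GAPDH plus ACTB it was -0.0602 (adjusted p = 0.0984) or, with the block as well, -0.0621 and past the threshold as a fall (adjusted p = 0.000372). Without replicate 1 the slope was 0.088 (edgeR adjusted p = 0.076), and without replicate 3 it was 0.0642 (adjusted p = 0.0851). NUP62, on the opposite strand, overlaps ATF5 by 1063 bases and fell (slope -0.33, standard error 0.0329, edgeR adjusted p = 2.63e-07), and the strand setting of the counting is not given in the sources used here.

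DDIT3 and CEBPB, transcription factors that act with or below ATF4, fell, and so did XBP1, the factor of the separate ER branch. DDIT3 encodes CHOP, a factor tied to cell death under lasting ER stress, and lies on chromosome 12 from 57516588 to 57521737 on the minus strand. Its CPM were 25.2, 27.7 and 28.7 at 0 h, 16.6, 18.0 and 14.6 at 1 h, 9.03, 7.69 and 7.83 at 2 h, and 5.09, 5.12 and 2.8 at 4 h. No time overlapped with the next, so the decline was visible at each step. The 4 h mean was 15.9% of the 0 h mean. The log2 difference was -0.73 (standard error 0.142) from 0 to 1 h, -1.0 (standard error 0.159) from 1 to 2 h and -0.91 (standard error 0.191) from 2 to 4 h, and all 3 were called (highest edgeR adjusted p = 0.0128). From 0 to 1 h it was no longer called without replicate 1 (adjusted p = 0.189) or without replicate 2 (adjusted p = 0.223), though it was with the block (adjusted p = 2.22e-06). The step from 1 to 2 h was -0.88 without replicate 2 (edgeR adjusted p = 0.0566). One slope gives a half-life of 1.45 h, from 1.17 to 1.66 h in single replicates and 1.21 h under the GAPDH plus ACTB scaling. Half-lives here are -1 over the slope in log2 per hour, so they carry the scaling with them. MARS1 and MBD6 overlap DDIT3 on the opposite strand with mean counts of 3060 and 649 per library, against 146.2 for DDIT3. Both rose under TMM (slopes 0.06 and 0.07, edgeR adjusted p = 0.0155 and 0.0448).

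CEBPB encodes C/EBPβ, which pairs with other bZIP factors, and is a single-exon gene on chromosome 20 from 50190830 to 50192668. Its CPM were 13.4, 13.1 and 17.7 at 0 h, 10.9, 10.3 and 12.7 at 1 h, 4.37, 3.34 and 4.83 at 2 h, and 2.84, 2.03 and 1.79 at 4 h. The groups were apart at each step, by the least from 0 to 1 h. The largest step was from 1 to 2 h, with a log2 difference of -1.43 (standard error 0.188, edgeR adjusted p = 0.000144), against -0.38 (standard error 0.163, adjusted p = 0.292) in the hour before. With the block the first hour was called too (adjusted p = 0.0136, edgeR). The 2 to 4 h difference was -0.92 (standard error 0.242, edgeR adjusted p = 0.0107), and it was not called without replicate 2 (adjusted p = 0.0548) or without replicate 3 (adjusted p = 0.0685). When the block was used as well, it was called without either. The overall slope of -0.74 (standard error 0.0675, edgeR adjusted p = 1.02e-07) gives a half-life of 1.35 h. It averages over unequal steps of -0.38, -1.43 and -0.46 log2 per hour. The antisense gene CEBPB-AS1 had a mean of 7.42 counts and was not tested.

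XBP1, whose mRNA the ER sensor IRE1 splices into the form that encodes the active factor, lies on chromosome 22 from 28794555 to 28800597 on the minus strand. The counts are per gene and sum the spliced and unspliced forms. Its CPM were 65.0, 64.1 and 72.3 at 0 h, 50, 48.6 and 55.0 at 1 h, 39.5, 34.8 and 33.5 at 2 h, and 15.1, 11.7 and 8.73 at 4 h. All 4 times were apart. The log2 difference was -0.39 (standard error 0.118, edgeR adjusted p = 0.109) in the first hour, -0.51 (standard error 0.122, adjusted p = 0.0107) in the second and -1.60 (standard error 0.143, adjusted p = 3.87e-06) over the last 2 h. Per hour these are -0.39, -0.51 and -0.80, the latest interval being the steepest, unlike the members that lost most between 1 and 2 h. Departure of XBP1 from a straight line was not called (edgeR adjusted p = 0.229), though it was with the block (adjusted p = 0.00454). The first hour was called with the block (edgeR adjusted p = 0.000283), with the GAPDH plus ACTB scaling (adjusted p = 0.028) and by DESeq2 (adjusted p = 0.0446). The step from 1 to 2 h was not called without replicate 2 (edgeR adjusted p = 0.169), though it was when the block was used as well. Over all times the slope was -0.62 (standard error 0.0423), with the lowest adjusted p of the members (6.35e-09, edgeR), and the half-life was 1.62 h.

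TRIB3 and PPP1R15A, the members that restrain the pathway, fell as well. TRIB3, a pseudokinase that binds ATF4 and dampens it, lies on chromosome 20 from 362835 to 397559. Its CPM were 39.6, 36.5 and 39.8 at 0 h, 33.1, 33.2 and 35.6 at 1 h, 30.4, 26.6 and 26.7 at 2 h, and 16.0, 15.4 and 12.8 at 4 h. The times did not overlap, and the level at 4 h was 38.0% of that at 0 h, the highest share among the members that fell. Its slope of -0.35 (standard error 0.0293, edgeR adjusted p = 4.56e-08) gives a half-life of 2.87 h, from 2.41 to 3.15 h in single replicates. The loss per hour was -0.19, -0.28 and -0.46 log2 in the 3 intervals, and only the last 2 were called. The step from 1 to 2 h was the least firm (standard error 0.091, edgeR adjusted p = 0.047): its adjusted p ran from 0.0882 to 0.293 when 1 replicate was left out, was 0.0904 with no filter on low counts and 0.0568 by DESeq2, and was 0.00336 with the block or 0.0618 with the block but without replicate 3.

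PPP1R15A encodes GADD34, which brings a phosphatase to eIF2 and so reverses the block on translation, and lies on chromosome 19 from 48872212 to 48876059. Its CPM were 92.9, 84.9 and 63.4 at 0 h, 70.0, 63.0 and 44.3 at 1 h, 36.4, 29.8 and 18.4 at 2 h, and 32.8, 23.8 and 17.1 at 4 h. Replicate 1 was the highest and replicate 3 the lowest at every time, so that 0 and 1 h overlapped although each replicate went down. The first hour gave a log2 difference of -0.44 (standard error 0.234, edgeR adjusted p = 0.438), which was called with the block (standard error 0.0609, adjusted p = 2.63e-06). From 1 to 2 h it was -1.07 (standard error 0.25, edgeR adjusted p = 0.00962, or 0.185 without replicate 2). From 2 to 4 h it was -0.20 (standard error 0.269, edgeR adjusted p = 0.616, or 0.0518 with the block), and that step was called with the block under the GAPDH plus ACTB scaling (-0.51, adjusted p = 1.09e-05) or without replicate 3 (-0.26, adjusted p = 0.0293). The level was 35.1% of the 0 h mean at 2 h and 30.5% at 4 h. The half-life from 1 slope, 2.19 h, therefore averages over unequal steps.

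CHAC1, DDIT4 and SESN2, the effector genes, held the 2 steepest falls. CHAC1 degrades glutathione and lies on chromosome 15 from 40952962 to 40956512. Its CPM were 3.83, 3.95 and 6.39 at 0 h, 3.54, 2.84 and 2.72 at 1 h, 0.298, 0.202 and 0.387 at 2 h, and 0.118, 0.0967 and 0.336 at 4 h. The 2 and 4 h libraries held 1 to 4 reads each. Summed over replicates there were 152 counts at 0 h, 96 at 1 h, 9 at 2 h and 5 at 4 h. Relative to library size, the 2 h sum was 9.8% of the 1 h sum (95% interval 4.35% to 19.4%), and the 4 h sum was 3.78% of the 0 h sum (1.21% to 9.01%). These exact intervals cover counting error only. The log2 difference from 1 to 2 h was -3.30 (standard error 0.395, edgeR adjusted p = 6.19e-05), and from 2 to 4 h it was -0.68 (standard error 0.708, adjusted p = 0.517), a step these few reads could not resolve. The first hour gave -0.64 (standard error 0.244, edgeR adjusted p = 0.221, or 0.0238 with the block). The slope of -1.35 (standard error 0.155, edgeR adjusted p = 1.32e-06) gives a half-life of 0.742 h. It averages over unequal steps of -0.64, -3.30 and -0.34 log2 per hour, the last from very few reads. Departure from a straight line was called (edgeR adjusted p = 0.0419).

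DDIT4 encodes REDD1, an inhibitor of the growth kinase complex mTORC1, and lies on chromosome 10 from 72273919 to 72276036. Its CPM were 9.72, 9.83 and 14.8 at 0 h, 4.59, 5.0 and 5.98 at 1 h, 0.794, 1.21 and 1.26 at 2 h, and 0.355, 0.773 and 1.01 at 4 h. The 0, 1 and 2 h groups were apart, while 2 and 4 h overlapped. The 1 h mean was 45.3% of the 0 h mean, the lowest share of the 10 members at that time, with a log2 difference of -1.14 (standard error 0.211, edgeR adjusted p = 0.00973). That call was lost without replicate 1 (adjusted p = 0.131) or without replicate 2 (adjusted p = 0.223), but was made with the block (adjusted p = 2.27e-07). The next hour gave -2.24 (standard error 0.294, edgeR adjusted p = 0.000139) and the last 2 h gave -0.59 (standard error 0.427, adjusted p = 0.327). Summed counts went from 368 at 0 h to 20 at 4 h, or 6.24% relative to library size (95% exact interval 3.77% to 9.78%). The half-life was 0.839 h, and the ranges of single-replicate half-lives of CHAC1 (0.711 to 0.789 h) and DDIT4 (0.715 to 0.949 h) overlapped each other and were below those of the other members that fell. Both half-lives average over unequal steps, and these ranges do not cover that.

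SESN2, another brake on mTORC1 that responds to leucine, lies on chromosome 1 from 28259518 to 28282491 in 10 exons. Its CPM were 7.56, 9.06 and 11.8 at 0 h, 8.13, 10.4 and 8.16 at 1 h, 4.56, 4.25 and 4.45 at 2 h, and 3.43, 2.61 and 2.24 at 4 h. At 1 h 2 replicates were above their own 0 h value and 1 was below it, and the log2 difference was -0.10 (standard error 0.178, edgeR adjusted p = 0.905, or 0.696 with the block). From 1 to 2 h the groups were apart, at -1.01 (standard error 0.195, edgeR adjusted p = 0.00266, or 0.121 without replicate 2). From 2 to 4 h they were apart too, at -0.68 (standard error 0.232, edgeR adjusted p = 0.0385), but leaving out any 1 replicate gave adjusted p between 0.0608 and 0.191. Its slope was -0.49 (standard error 0.0611, edgeR adjusted p = 3.42e-06), a half-life of 2.06 h, or 1.61 to 3.08 h in single replicates. The half-life averages over unequal steps of -0.10, -1.01 and -0.34 log2 per hour.

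The 3 intervals asked when the loss took place. From 0 to 1 h, DDIT3 and DDIT4 fell, 2 of 10 members against 2.24% of genes, and no member rose, against 0.349%. With the block 7 fell (ATF4, DDIT3, DDIT4, CHAC1, PPP1R15A, XBP1 and CEBPB, against 10.5% of genes) and ATF5 rose, against 6.18%, a rise that was not called with the block once any 1 replicate was left out or with GAPDH plus ACTB. Without the block, neither DDIT3 nor DDIT4 was called once replicate 1 or replicate 2 was left out. In 6 members (DDIT3, DDIT4, TRIB3, CHAC1, XBP1 and CEBPB) all 1 h libraries were below all 0 h libraries, as in 12.7% of genes.

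From 1 to 2 h the same 8 members as over the whole course fell, against 12.5% of genes, with the block or without it (20.7% of genes with it), and none rose, against 3.76%. Without replicate 2 only 3 were called, but 8 were when the block was used as well. All 8 had 2 h libraries below every 1 h library, as in 19.9% of genes. The median log2 difference of the 10 members was -1.0, and that of all genes was 0.0134. ATF4 and ATF5 stood at 0.00 and 0.01. From 2 to 4 h, DDIT3, TRIB3, SESN2, XBP1 and CEBPB fell, 5 members against 18.3% of genes, with the block or without it (25.3% with it), and none rose, against 12%. The same 5 had 4 h libraries below every 2 h library, as in 22.7% of genes. Only 3 were called without replicate 2 or without replicate 3. With the block as well, these counts were 4 and 5, PPP1R15A taking the place of SESN2 without replicate 3. ATF4 and ATF5 rose with the block, against 25.3% of genes, but had differences of -0.13 each with the block under the GAPDH plus ACTB scaling, which are called falls (edgeR adjusted p = 0.00278 and 0.0197). Without the block, 0 members were higher in any of the 3 intervals at an unadjusted p below 0.05 by edgeR, and DESeq2 called 0 higher.

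A test of departure from a straight line called CHAC1 (edgeR adjusted p = 0.0419), 1 of 10 members against 2.7% of genes. With the block it called 8, all but ATF5 and DDIT3, against 17.2% of genes. By that fit the half-lives of CEBPB, XBP1, TRIB3 and SESN2 also average over unequal steps, as do those of CHAC1, DDIT4 and PPP1R15A. Per hour, the loss between 1 and 2 h was the largest of the 3 intervals in CHAC1, DDIT4, CEBPB, PPP1R15A, SESN2 and DDIT3, and the loss between 2 and 4 h was the largest in XBP1 and TRIB3. Differences between members in this timing were not tested.

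**Figure D2:**
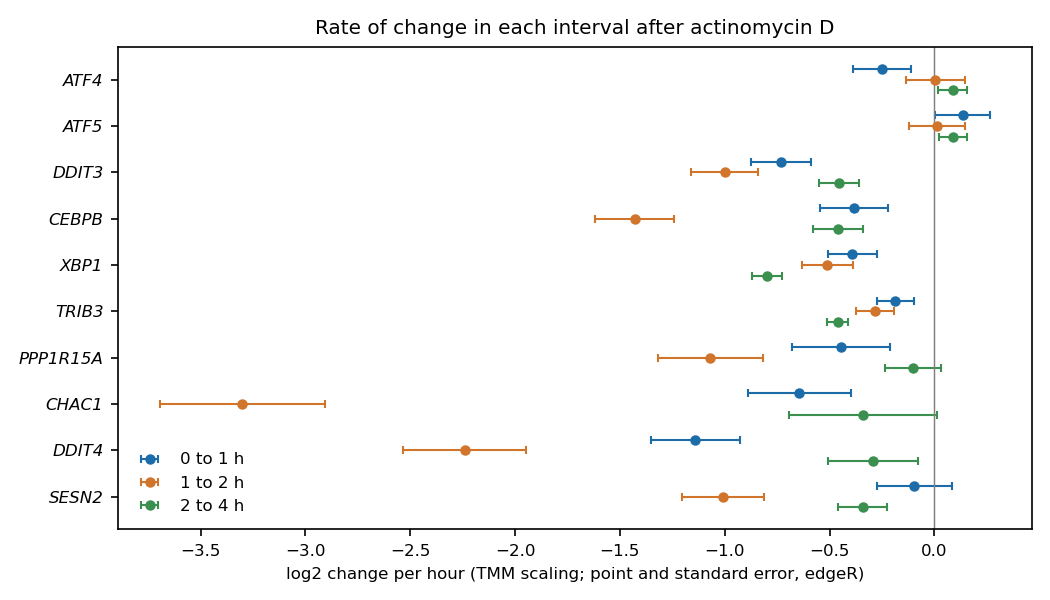
Log2 change per hour (horizontal axis) of each regulator mRNA in the intervals 0 to 1 h, 1 to 2 h and 2 to 4 h; points are edgeR estimates under TMM scaling and bars are standard errors. The interval from 1 to 2 h lies farthest left for CHAC1 (-3.30), DDIT4 (-2.24) and CEBPB (-1.43), while XBP1 moves fastest from 2 to 4 h (-0.80).

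Library totals and GAPDH plus ACTB lowered the slopes of all 10 members, by more with the latter, whereas DESeq2's size factors changed no slope call. ATF5 was not called with either of the first, and ATF4 was called with GAPDH plus ACTB. With library totals the slopes of the 8 members that fell ran from -0.388 (TRIB3) to -1.38 (CHAC1), and with GAPDH plus ACTB from -0.488 to -1.48, with 9 members called as falling once ATF4 was among them. Half-lives of the 8 were 0.674 to 2.05 h with GAPDH plus ACTB and 0.742 to 2.87 h with TMM. The half-life of ATF4 under GAPDH plus ACTB was 6.98 h, and under TMM its slope of -0.01 was within its standard error of 0.

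**Figure D3:**
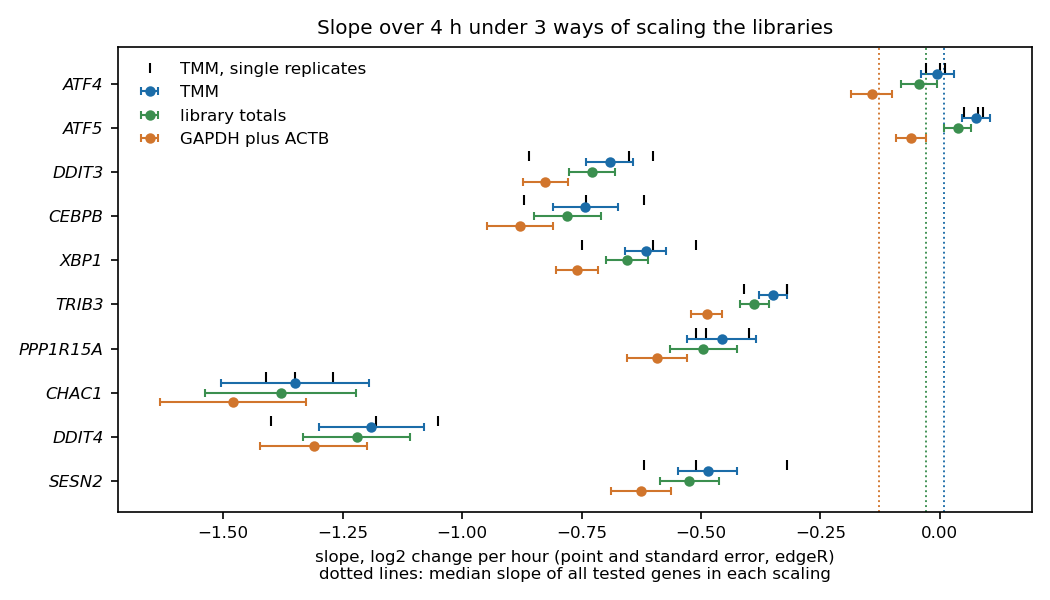
Slope over 4 h in log2 change per hour (horizontal axis) of each regulator mRNA under TMM, library totals and GAPDH plus ACTB scaling; points are edgeR estimates, bars are standard errors, black ticks are slopes of single replicates under TMM, and dotted lines are the median slopes of all tested genes. The 8 members below ATF5 lie left of the dotted lines under each scaling, whereas ATF5 changes side of 0 (0.08 under TMM and -0.0602 under GAPDH plus ACTB).

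Before treatment the regulators differed widely in abundance. Per kilobase of canonical transcript, the 0 h levels in CPM per kb (mean ± SD, n = 3) were 196 ± 27.8 for ATF4, 70.1 ± 9.84 for ATF5, 37.5 ± 2.51 for XBP1, 34.2 ± 6.49 for PPP1R15A and 30.1 ± 1.98 for DDIT3. TRIB3 followed at 16.4 ± 0.784, CEBPB at 8.01 ± 1.42, DDIT4 at 6.57 ± 1.67, CHAC1 at 3.11 ± 0.949 and SESN2 at 2.74 ± 0.62. ATF4, ATF5 and TRIB3 were apart from their neighbours in this order, whereas the libraries of XBP1 and PPP1R15A, of PPP1R15A and DDIT3, of CEBPB and DDIT4, and of CHAC1 and SESN2 overlapped. The median of 11161 tested genes with a transcript length was 9.53 CPM per kb, ATF4 was above 97.5% of these genes, and SESN2 was above 22.7%. At 4 h ATF4 (186 ± 28.8) and ATF5 (87.8 ± 13.2) still led, and PPP1R15A (10.5 ± 3.34) stood next. CHAC1 was last at 0.121 ± 0.087 and overlapped the next, DDIT4, at 0.408 ± 0.189.

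**Figure D4:**
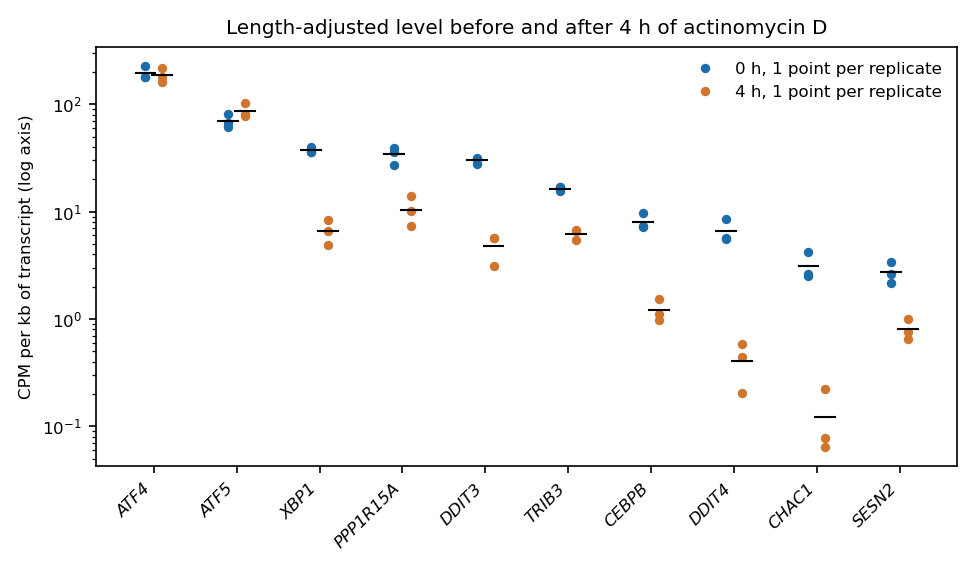
Level per kilobase of canonical transcript (CPM per kb, vertical log axis) of the 10 regulator mRNAs, ordered by their 0 h mean; points are the 3 replicates at 0 h (blue) and 4 h (orange), and black lines are their means. ATF4 and ATF5 sit near the same level at both times, and the spread from highest to lowest mean widens from 196 against 2.74 at 0 h to 186 against 0.121 at 4 h.

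The pentamer counts were set beside the order of loss. CHAC1, the steepest, had 1 pentamer, DDIT4, the next, had none, and XBP1, with 4, came after CEBPB and DDIT3, with fewer. Over all 10816 matched genes, the median slope was -0.0488 for 1088 genes with the TT-flanked pentamer, -0.00815 for 7032 with the pentamer only and 0.0783 for 2696 with neither. DDIT3 and CHAC1 of the first group, at -0.69 and -1.35, fell more steeply than the median of their group. So did PPP1R15A, XBP1 and CEBPB of the second, at -0.46, -0.62 and -0.74. In the last group DDIT4, TRIB3 and SESN2 did too, at -1.19, -0.35 and -0.49. That group also holds ATF4 and ATF5, at -0.0054 and 0.0762, which were not called as falling under TMM. With group medians this close to 0, every member called as falling lay below that of its group, so this comparison does not bear on the pentamers. The values are descriptions over genes, which also differ in UTR length.

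Other genes of the pathway were counted in 4 lists, beside shares over all tested genes of 32.1% falling and 30.7% rising (34.8% and 36.2% with the block). The first list held 15 genes, for the eIF2 kinases, eIF2, its exchange factor eIF2B and their regulators, together with EIF2A, a separate factor of similar name. Of these 15, 3 fell, 5 rose and 7 were not called, with a median slope of 0.02 log2 per hour, against 0.0093 for all genes. EIF2AK3, which encodes the ER kinase PERK, fell from 20.4 ± 3.71 to 5.23 ± 1.23 CPM (mean ± SD, n = 3) between 0 and 4 h, with a slope of -0.50 (standard error 0.0453, edgeR adjusted p = 9.12e-08). PPP1R15B, the constitutive counterpart of PPP1R15A in removing phosphate from eIF2, fell from 101 ± 4.61 to 44.3 ± 0.702 CPM, with a slope of -0.31, shallower than the -0.46 of PPP1R15A. The eIF2B subunit genes EIF2B1 and EIF2B3 had the highest slopes, 0.07 and 0.08, and fell under the GAPDH plus ACTB scaling (-0.0663 and -0.0597, edgeR adjusted p = 0.0211 and 0.0145). With the block 3 fell and 7 rose, and under the GAPDH plus ACTB scaling 15 fell. That scaling called 0 rising genes in each of the 4 lists described here, also at an unadjusted p below 0.05 (edgeR).

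Of 22 genes for ER stress sensors, chaperones and ER-associated degradation, 3 fell, 10 rose and 9 were not called, against 32.1% falling and 30.7% rising over all genes, with a median slope of 0.04. DNAJB9, an ER co-chaperone and target of spliced XBP1, fell from 17.1 ± 1.82 to 6.14 ± 0.396 CPM (slope -0.36). HERPUD1, which serves ER-associated degradation, fell from 42.3 ± 5.51 to 19.2 ± 1.1 CPM (slope -0.29). ATF6B, a sensor of the ATF6 branch, and HYOU1, an ER chaperone, rose with slopes of 0.15 and 0.14. Under the GAPDH plus ACTB scaling 12 fell and 0 rose, and HYOU1 had a slope of -0.00301 (edgeR adjusted p = 0.897). With the block 4 fell and 11 rose.

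Of 16 amino acid genes that ATF4 induces, 15 were tested (ALDH1L2 had too few counts), and 2 fell, 5 rose and 8 were not called, against the same 32.1% and 30.7%, with a median slope of 0.04. SLC38A2, an amino acid transporter, fell from 652 ± 14.4 to 143 ± 17.8 CPM, with a slope of -0.57 (standard error 0.0242, edgeR adjusted p = 2.43e-10) and a half-life of 1.76 h. SLC3A2, a transporter subunit, had a slope of -0.08 (edgeR adjusted p = 0.0978), which was called with the block (adjusted p = 1.77e-06). PYCR1 and PHGDH, enzymes of proline and serine synthesis, rose with slopes of 0.16 and 0.14, and PHGDH stood at -0.00279 under the GAPDH plus ACTB scaling (edgeR adjusted p = 0.916). The counts were 3 falling and 9 rising with the block and 8 and 0 under that scaling.

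The last list held 22 genes, other stress outputs and bZIP partners together with CEBPZ, a gene of similar name that is not a bZIP factor. Of these, 19 were tested (CEBPD, DDIT4L and BBC3 had too few counts). Among them 11 fell, CEBPZ included (slope -0.35), 2 rose and 6 were not called, against 32.1% and 30.7% of all genes, with a median slope of -0.14. TRIB1, a paralog of TRIB3, fell from 31.3 ± 3.52 to 1.64 ± 0.555 CPM, with a slope of -1.31 (standard error 0.136, edgeR adjusted p = 4.32e-07) against -0.35 for TRIB3. CEBPG, a bZIP partner of ATF4, fell from 81.6 ± 3.45 to 26.3 ± 2.27 CPM (slope -0.42). NFE2L1 and CREB3, bZIP factors held in the ER membrane, rose with slopes of 0.08 and 0.07 and fell under the GAPDH plus ACTB scaling (-0.0596 and -0.064, edgeR adjusted p = 0.00356 and 0.0132). The counts were 11 and 2 with the block as well, and 17 and 0 under that scaling.

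**Figure D5:**
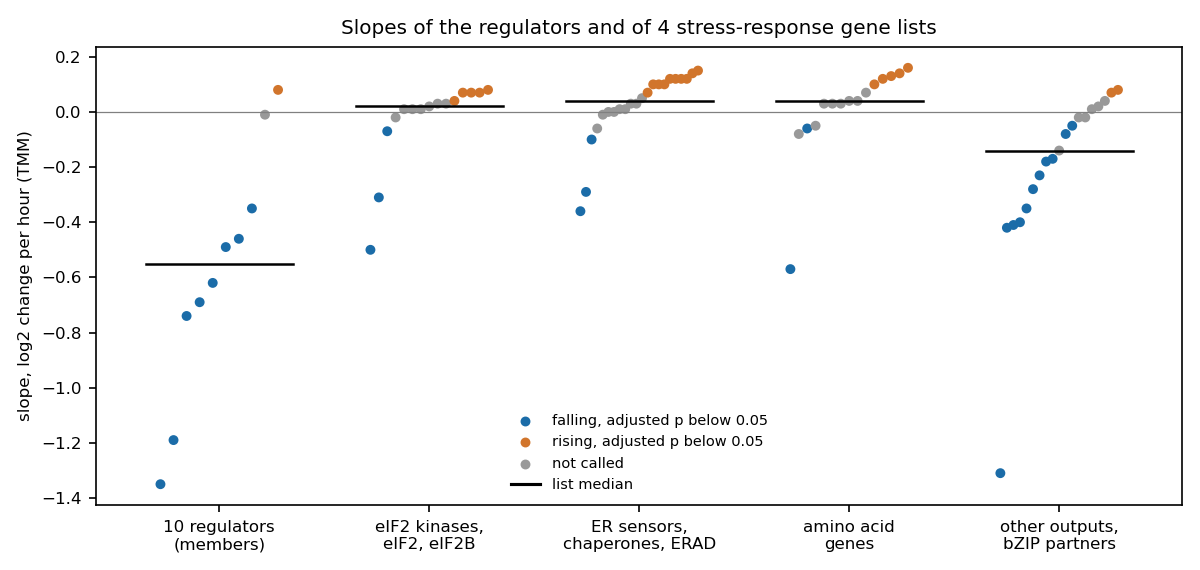
Slope in log2 change per hour under TMM scaling (vertical axis) of the 10 regulators and of the tested genes of 4 stress-response lists; each point is a gene, blue falling and orange rising at an edgeR adjusted p below 0.05, grey not called, and black lines are list medians. The median is -0.55 for the regulators and between -0.14 and 0.04 for the lists, in which TRIB1 (-1.31) is the lowest point.

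The gene whose course over the 12 libraries was nearest to that of each member was found by Euclidean distance of log2 CPM relative to the 0 h mean, among 9970 other genes that averaged 50 counts or more. ZFP36L2, an RNA-binding protein gene with a slope of -0.71, was nearest to both DDIT3 (distance 0.532, against a median of 5.72 over the candidates) and CEBPB (0.821, against 5.67). IER5 (slope -1.10) was nearest to CHAC1 at 1.66, and ZNF627 (slope -1.19) to DDIT4 at 1.56, the largest nearest distances. CHAC1 and DDIT4 averaged 21.83 and 48.83 counts, below the 50 asked of the candidates, and held few reads at 2 and 4 h. The part of depth in these distances was not tested. MIOS was nearest to TRIB3 (0.301), ZNF304 to PPP1R15A (0.632), HMGXB4 to SESN2 (0.614) and DCLRE1B to XBP1 (0.481), with slopes of -0.35, -0.49, -0.47 and -0.62. SIRT5 (slope -0.03, edgeR adjusted p = 0.619) was nearest to ATF4 at 0.342 and HNRNPH1 (slope 0.10, adjusted p = 0.00223) to ATF5 at 0.276. The points share the 12 libraries and their scaling.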

How the data were processed

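RNA-seq was measured in 12 libraries of A673 cells, poly(A) selected and prepared with a stranded kit per the labels. The values are raw read counts per gene symbol as deposited. The submitters' processing notes name FastQC, STAR and the build hg19, with no role or version. The read counter, its annotation and strand setting are not given in the sources used here. Groups, times and replicate numbers came from the sample labels, and 0 columns lacked a sample. Of 26334 symbols, 7397 had no count in any library. Library totals of 9147018 to 11194705 counts set the precision: a gene near 10 counts carries large counting error.

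The 12032 genes that averaged 10 counts or more were fitted with edgeR 4.0.16 in R 4.3.3 (TMM, glmQLFit, glmQLFTest), with time as hours for the slope or as 4 groups for contrasts, and Benjamini-Hochberg adjustment over all genes. Standard errors are the log2 estimate divided by the square root of F. The scripts were tested on simulated data. Same-numbered libraries deviated together from the means of their times (correlation 0.3 to 0.612 over 18 pairs, against -0.403 to 0.0842 over 36 pairs with different numbers), so replicate numbers pair the samples and fits with the replicate block are given where they change a call. Transcript features and positions come from canonical transcripts of GENCODE version 44 on GRCh38, matched by symbol for 10816 tested genes. No coordinates of hg19 were used.

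The members, the 4 gene lists and the tests were chosen with earlier results of these data known. Named genes are the members, the 2 lowest and 2 highest slopes of each list, the nearest gene in course to each member, and GAPDH and ACTB. Genes overlapping a member were added after values were seen. Alternatives were library totals, size factors of DESeq2 1.42.0, scaling to GAPDH plus ACTB, DESeq2's Wald test, no filter, a mean of at least 50 counts, the block, leaving out each replicate, and leaving out the 0 or 4 h libraries. The block combined with a left-out replicate or with GAPDH plus ACTB was chosen after seeing the data. Figures were drawn with matplotlib 3.10.9.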

Additional observations from a re-analysis of the deposited data

How the results depend on the processing

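The count of 8 falling members by slope was 8 under every alternative but 3: it was 9 with scaling to GAPDH plus ACTB, 10 with that scaling and the replicate block, and 6 with a mean of at least 50 counts, which leaves out CHAC1 and DDIT4. For 4 h against 0 h it was also 9, 10 and 6, and 9 with the block without replicate 1, where ATF4 was called (-0.11, edgeR adjusted p = 0.0219). Over 75 gene-level estimates and 16 alternatives, 998 of 1110 gave the same call, 50 gained a call, 41 lost it and 21 changed sign with at least 1 of both values called. Depth limits CHAC1 and DDIT4 at 2 and 4 h, and for the other changes named here the cause was not tested.

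The 1 rising member (ATF5, by slope) was 0 with library totals, with GAPDH plus ACTB with or without the block, without the 4 h libraries and without the 0 h libraries, and 0 to 1 without each replicate. For 4 h against 0 h it was 0 with library totals, DESeq2 size factors (edgeR adjusted p = 0.0526) or GAPDH plus ACTB with or without the block, and 0 to 1 without each replicate.

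From 0 to 1 h, 2 members fell without the block and 7 with the replicate block, which also gave 1 rise (ATF5), or 0 with the block without any 1 replicate or with GAPDH plus ACTB. With the block, 7 fell without replicate 1, 5 without replicate 2 and 5 without replicate 3, and 8 with GAPDH plus ACTB. The count was 1 with a mean of at least 50 counts and 0 to 2 without each replicate. From 1 to 2 h, 3 to 7 fell without each replicate, and 8, 8 and 7 with the block but without replicates 1, 2 and 3. From 2 to 4 h, 3 to 4 fell without each replicate, and 9 with the block and GAPDH plus ACTB. With the block but without replicates 1, 2 and 3, 5, 4 and 5 fell. With the replicate block 2 rose, or 2, 2 and 1 with the block but without replicates 1, 2 and 3.

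The members that departed from a straight line numbered 1, and 0 with GAPDH plus ACTB, 2 with no filter, 0 with a mean of at least 50 counts and 0 to 1 without each replicate. With the replicate block they numbered 8, or 6, 5 and 6 without replicates 1, 2 and 3, and 7 with GAPDH plus ACTB.

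For the lists, GAPDH plus ACTB scaling gave 15 falling and 0 rising genes of the eIF2 list, 12 and 0 of the ER list, 8 and 0 of the amino acid list and 17 and 0 of the other outputs. Library totals gave 1 rising gene in the eIF2 list and 1 in the other outputs. The block gave 9 rising amino acid genes. Without the 4 h libraries there were 3 rising eIF2 genes, 1 falling amino acid gene, and 6 falling and 0 rising other outputs, and without the 0 h libraries there was 1 falling amino acid gene. Without each replicate there were 3 to 5 rising eIF2 genes, 1 to 3 falling amino acid genes, and 7 to 11 falling and 1 to 2 rising other outputs.

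All 21 changes of sign came with GAPDH plus ACTB, which lowers the median slope. With that scaling the slope was -0.0602 for ATF5, -0.0663 for EIF2B1, -0.0597 for EIF2B3, -0.00301 for HYOU1, -0.00279 for PHGDH, -0.064 for CREB3, -0.0596 for NFE2L1 and -0.0363 for HNRNPH1. With the block as well these were -0.0621, -0.0663, -0.0595, -0.00321, -0.00273, -0.0634, -0.0595 and -0.0371. The 4 h against 0 h difference of ATF5 was -0.22 with or without the block, and with the block the difference was -0.13 for ATF4 from 1 to 2 h, -0.13 for ATF4 from 2 to 4 h and -0.13 for ATF5 from 2 to 4 h.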
